A study of Mus musculus with 10 samples.

Results

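The Rab genes encode small GTPases of membrane traffic, and they were taken here as every measured gene whose symbol is Rab followed by a number and at most 1 letter. The rule found 59 genes among the 19939 genes with a probe set of their own on the array, a probe set being the group of short probes that reports on 1 gene. Hippocampi came from Dp3Yah mice, a mouse model of Down syndrome (DS), and from control littermates. The Rab genes lie on 18 chromosomes, with 4 of them on the X chromosome (Rab9, Rab9b, Rab33a and Rab39b) and 0 on chromosome 16, so that none is in the duplicated segment.

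A Rab protein is a molecular switch that marks a membrane. Loaded with GTP by an exchange factor, it recruits effectors that tether, move or fuse a vesicle. After an activating protein has stimulated GTP hydrolysis, a GDP dissociation inhibitor (GDI) extracts the Rab from the membrane for another round. Each compartment carries its own Rabs, and in neurons they serve the synaptic vesicle cycle, the recycling of receptors and the transport of endosomes from axon tip to cell body. Enlarged early endosomes marked by RAB5 are a known feature of DS neurons, a trait tied in earlier work to the gene App, which borders the segment studied here.

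The Dp3Yah group held 5 male mice of 16 weeks, with 3 copies of the chromosome 16 segment that runs from Hspa13 to Gabpa. The labels give their background as C57BL/6N, while the study's methods name C57BL/6J. The control group held 5 male littermates of the same age and background with 2 copies. RNA came from the whole hippocampus of both sides, 1 array per mouse, so the p-values measure the spread between mice. In bulk tissue, fewer cells of a type and less RNA per cell cannot be told apart. The duplication is carried by every cell type, and the RNA is a mixture of all of them.

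Values are log2 signals as deposited after RMA, a procedure that corrects background, gives all arrays a common distribution and summarises the probes. Probe sets annotated to several genes were left out, and sharing of probes by close paralogues was not tested. The array medians over all genes lay between 6.32 and 6.41, and no 2 arrays were identical. The tissue was checked by 5 neuronal markers, of which 2 were higher in Dp3Yah mice: Camk2a averaged 13.0 in Dp3Yah mice and 13.1 in control mice, Snap25 13.2 and 13.2, Rbfox3 10.8 and 10.9, Neurod6 9.67 and 9.58, and Prox1 8.39 and 8.57. Hspa13, at one end of the duplicated segment, was higher by 0.60 in Dp3Yah mice (SE 0.069, limma adjusted p = 0.0122). Gabpa, at the other end, averaged 7.91 ± 0.11 in Dp3Yah mice and 7.47 ± 0.12 in control mice (SD, n = 5 each, limma adjusted p = 0.0785), and for both genes 5 of 5 Dp3Yah mice lay above all control mice. Choroid plexus, a tissue that can adhere to the hippocampus during dissection, varied between mice of both groups: the mean of 9 of its markers was 6.26 to 8.15 in Dp3Yah mice and 6.16 to 8.25 in control mice. Microglial markers were higher in Dp3Yah mice for 13 of 15 genes (list mean 7.70 to 7.90 in Dp3Yah mice, 7.62 to 7.73 in control mice), astrocyte markers for 10 of 10 (9.80 to 9.89 and 9.68 to 9.86), and dentate granule cell markers for 2 of 10 (7.63 to 7.87 and 7.76 to 7.95). Pyramidal cell markers were higher for 6 of 10 and endothelial markers for 2 of 9, where 46.8% of all genes were higher. At an unadjusted limma p below 0.05, 4 of 15 microglial markers were higher (26.7%) and 4 of 10 dentate markers lower (40%). For astrocyte markers it was 0 of 10, and for all genes 5.08%. The part of these cell types in the Rab values was not tested.

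Expression of the Rab family differed little between Dp3Yah and control hippocampus. None of the 59 genes passed the comparison (limma, Benjamini-Hochberg adjusted p over all genes; 0 of 59, where 0.015% of all genes passed), and the lowest adjusted p among them was 0.922. At an unadjusted p below 0.05 there were 2 of 59 (3.39%), against 5.08% of all genes. Both, Rab26 and Rab34, were higher in Dp3Yah mice, where 2.49% of all genes were called in that direction; 0 Rab genes were called lower, against 2.59% of all genes. These shares are near or below the background.

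The arrays also set a limit to the changes that could have been missed. For 56 of the 59 Rab genes (94.9%, against 88.3% of all genes) the 95% interval of the change lay within 1.2-fold in either direction, that is within 0.26 on the log2 scale. The exceptions were Rab34, Rab27b and Rab37. Rab5a, Rab7 and Rab3a, which stand for early endosomes, late endosomes and synaptic vesicles, were all inside. The 56 comprise 41 of the 43 Rab genes above the median level of all genes and 15 of the 16 that were not. For weak signals the interval bounds the change of the signal, and a change in the RNA could be larger.

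**Figure D1:**
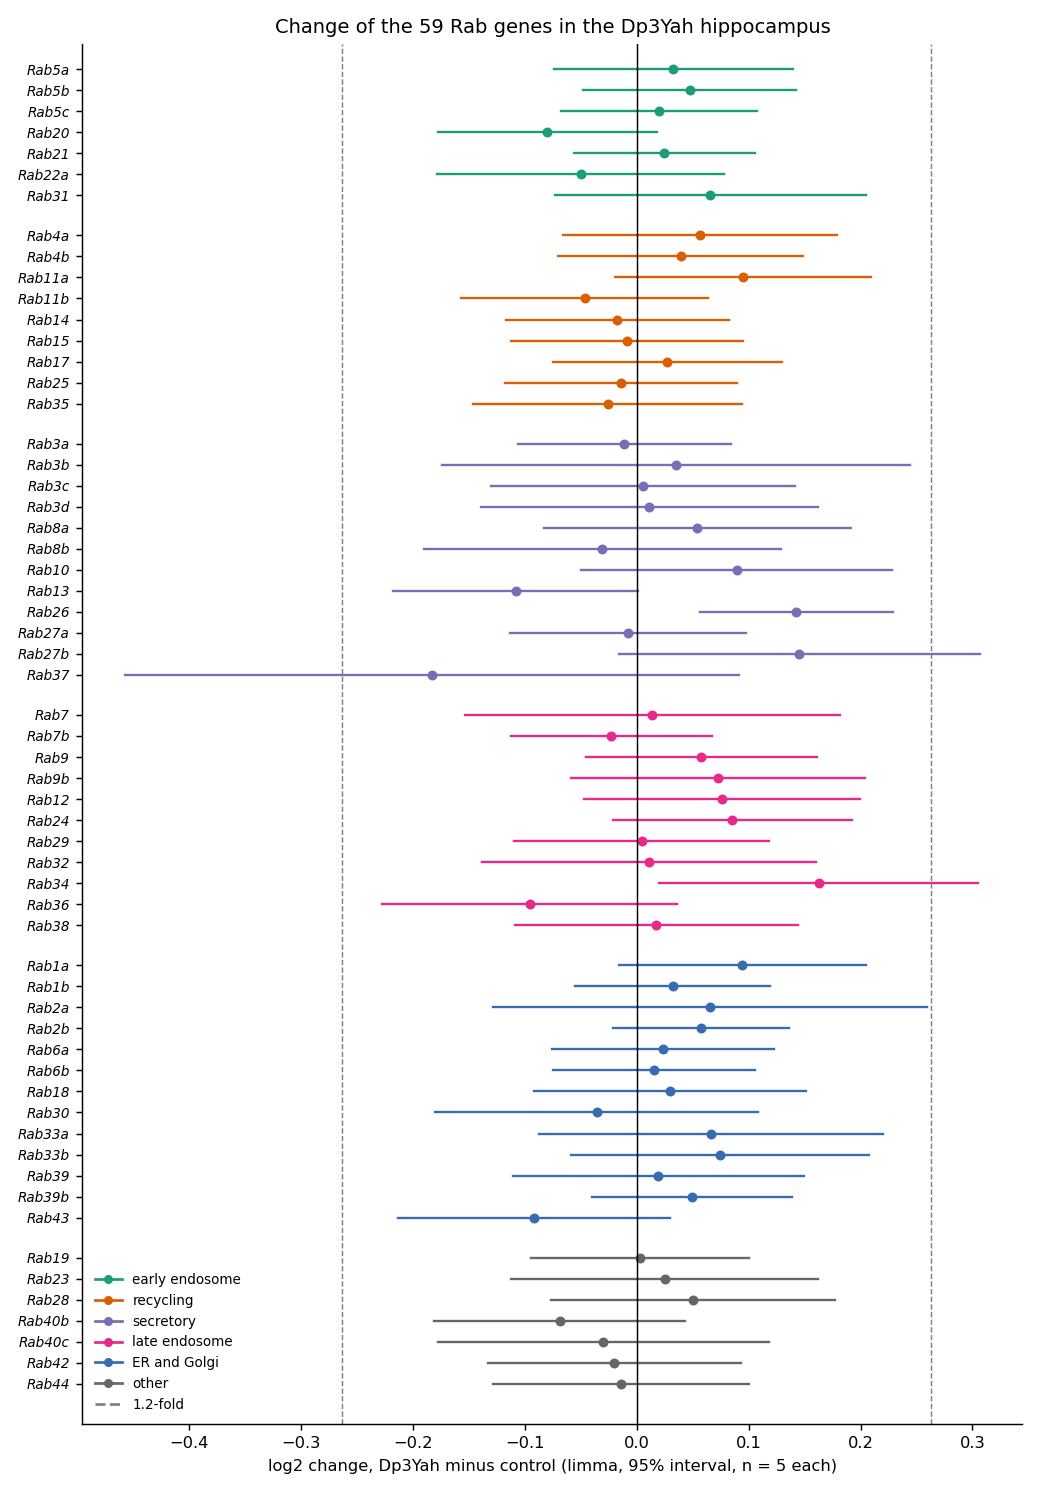
Log2 change (Dp3Yah minus control) of each of the 59 Rab genes, grouped by the compartment each serves; points are limma estimates, lines are 95% intervals (n = 5 mice each) and dashed lines mark 1.2-fold. All but 3 intervals (Rab34, Rab27b and Rab37) lie between the dashed lines, and the intervals of Rab26 and Rab34 are the only ones that do not include 0.

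By direction, 39 of the 59 Rab genes (66.1%) had a log2 change above 0, against 46.8% of all genes. The median change was 0.02 for the Rab genes and -0.0047 for all genes. Without single mice the median of the Rab genes moved, to 0.0090 without Dp3Yah replicate 3, 0.04 without control replicate 1 and 0.0075 without control replicate 4. Many Rab genes are well expressed in the hippocampus: 43 of the 59 were above the median level of all genes, 6.38. Among those 43, 32 were higher in Dp3Yah mice and the median change was 0.03, while of the 9969 genes above that level 5294 were higher and the median was 0.01. The Rab genes share mice and vary together, as given further on, so the count of directions is a description with no test.

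The promoters of the Rab genes were read for a pair of short motifs, chosen after the expression values had been seen. The first is the ETS motif CCGGAAGT, which the GABP complex recognises; its DNA-binding subunit is the product of Gabpa, a gene of the duplicated segment. The second is the E-box TCACGTGA, a core of the CLEAR element that TFEB and related factors recognise in genes of lysosomes and endosomes. Promoters (250 bases before to 50 after an annotated start) came from RefSeq on GRCm38.p6, both strands were searched, and 48 of the 59 Rab genes had an entry. The start used for Rab21 lies inside the gene, whose outer end on that strand is at 115317419. The ETS motif was in 2 of 48 Rab promoters (4.17%), against 4.31% of 27025 genes with an entry. The E-box was in 3 of 48 (6.25%), against 1.12%. This difference rests on 3 genes and was not tested. The 27025 genes were not matched to the Rab genes in expression level or kind of gene. The stretches around the matches are shown because they come from genes of the early endosome (Rab5a, Rab21), of recycling (Rab11a) and of autophagy (Rab24), on the strand of the gene, with the motif in capitals; in Rab24 the ETS motif reads on the other strand, and the stretches with its matches overlap.
Rab5a, E-box, chr17:53479118-53479165, plus strand: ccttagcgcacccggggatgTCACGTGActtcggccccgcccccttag
Rab21, E-box, chr10:115315595-115315642, minus strand: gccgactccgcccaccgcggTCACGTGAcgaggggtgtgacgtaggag
Rab24, E-box, chr13:55321972-55321999, minus strand: ggccacttccggcgcccgcgTCACGTGA
Rab24, ETS, chr13:55321981-55322015, minus strand: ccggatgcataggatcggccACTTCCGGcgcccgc
Rab11a, ETS, chr9:64737775-64737822, minus strand: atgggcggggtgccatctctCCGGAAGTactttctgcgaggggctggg
Rab11a, ETS, chr9:64737757-64737789, minus strand: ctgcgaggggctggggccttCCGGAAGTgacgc
The log2 changes of these genes were 0.03 (Rab5a), 0.02 (Rab21), 0.09 (Rab24) and 0.09 (Rab11a), and none passed. A match says that the letters are present; whether a factor was bound was not measured here.

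Rabs of the early endosome govern the entry of internalised cargo, and 5 of the 7 measured were higher in Dp3Yah mice, with a median change of 0.02 and 0 that passed. Rab5a drives the fusion of early endosomes. Its signal in Dp3Yah mice was 9.47, 9.56, 9.71, 9.55 and 9.60, against 9.62, 9.52, 9.59, 9.49 and 9.50 in control mice. The groups overlapped almost fully, with the highest and the lowest mouse both in the Dp3Yah group. The change was 0.03 (SE 0.049, 95% interval -0.07 to 0.14, limma adjusted p = 0.962), 0.06 without Dp3Yah replicate 1 and -0.00041 without Dp3Yah replicate 3. The paralogues did likewise: Rab5b changed by 0.05 and Rab5c by 0.02, and the other probe set of Rab5b gave 0.05 as well.

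Among the remaining early endosomal genes, Rab21, which serves integrin uptake, changed by 0.02, Rab31, which serves transport between the Golgi and endosomes, by 0.07, and Rab22a, which serves the sorting of cargo for recycling, by -0.05. Rab20, a Rab of maturing phagosomes in macrophages, was the member of this compartment with the smallest p. Its values were 5.88, 5.95, 5.94, 5.86 and 6.00 in Dp3Yah mice and 5.93, 5.93, 6.08, 6.03 and 6.06 in control mice. Dp3Yah replicates 1 and 4 lay below every control mouse and the other 3 lay among them. The change was -0.08 (SE 0.045, limma adjusted p = 0.922).

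Recycling Rabs return receptors to the cell surface. Of 9 measured, 4 were higher and 5 lower in Dp3Yah mice, with a median change of -0.0085. Rab11a, of the recycling endosome that supplies receptors to dendritic spines, read 9.66, 9.76, 9.85, 9.71 and 9.73 in Dp3Yah mice, against 9.75, 9.70, 9.69, 9.54 and 9.55 in control mice. Control replicates 4 and 5 were below all other mice, and the rest overlapped. It changed by 0.09 (SE 0.053, limma adjusted p = 0.922). Its paralogue Rab11b changed by -0.05, on a probe set that averaged 11.53 in Dp3Yah mice and 11.58 in control mice. A second probe set of Rab11b gave -0.06 (SE 0.098), but at 5.94 and 6.00 it was below the median level of all genes and says little. Rab4a and Rab4b, of the fast recycling route, changed by 0.06 and 0.04. Rab14, Rab15 and Rab35 changed by -0.02, -0.0085 and -0.03, and the epithelial Rabs Rab17 and Rab25, both below the median level of all genes, by 0.03 and -0.01.

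Secretory Rabs bring vesicles to the plasma membrane, and this was the compartment with the most unequal members: 7 of 12 were higher in Dp3Yah mice, the median change was 0.0084, and the changes ran between -0.18 and 0.15. The Rab3 proteins sit on synaptic vesicles and bind RIM at the active zone. Rab3a, the main synaptic form, had signals of 10.46, 10.36, 10.56, 10.45 and 10.41 in Dp3Yah mice and 10.48, 10.52, 10.45, 10.42 and 10.43 in control mice. Control mice lay inside the range of the Dp3Yah mice. Its change was -0.01 (SE 0.044, 95% interval -0.11 to 0.08, limma adjusted p = 0.988). Rab3b, Rab3c and Rab3d changed by 0.03, 0.01 and 0.01.

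Rab26, which is found on synaptic vesicles and secretory granules and has been linked to the delivery of vesicles to autophagy, was the Rab gene with the smallest p. It lies on chromosome 17 (24529054 to 24533747, GRCm38.p6). Its signal was 7.09, 7.06, 7.14, 7.04 and 7.13 in Dp3Yah mice, against 7.02, 6.99, 6.90, 6.93 and 6.92 in control mice. Every Dp3Yah mouse was above every control mouse, a pattern seen in 1 of 59 Rab genes (1.69%) and in 0.522% of all genes; the opposite pattern was seen in 0 Rab genes and in 0.391% of all genes. The means were 7.09 ± 0.043 in Dp3Yah mice and 6.95 ± 0.050 in control mice (SD, n = 5 each). The difference of 0.14 (SE 0.040, 95% interval 0.06 to 0.23) corresponds to 1.10-fold (limma adjusted p = 0.922). An exact permutation test of Rab26 alone (two-sided) gave p = 0.00794, the smallest that 252 assignments of the mice allow. Groups that do not overlap must give this p, so it adds nothing to the pattern above. It also takes no account of the choice of Rab26 from among 59 genes. The SD of Rab26 between mice of a group was 0.047, below the median of all genes, 0.087. A small SD is part of what makes a p small, and Rab26 was chosen by its p. Its low SD is therefore no separate trait.

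Rab27b, which works beside Rab3 proteins in the docking of secretory vesicles, read 8.07, 8.09, 8.18, 8.03 and 7.90 in Dp3Yah mice and 8.0, 8.08, 7.97, 7.78 and 7.71 in control mice. Control replicates 4 and 5 were the lowest mice, as for Rab11a, and the groups overlapped. The change was 0.15 (SE 0.074, 95% interval -0.02 to 0.31, limma adjusted p = 0.922), and 0.10 without control replicate 5. Rab27a, its close relative, changed by -0.0076.

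Rab37, known from the granules of mast cells and other secretory cells, gave the largest change of all Rab genes and the least certain. Its values were 5.98, 6.04, 5.91, 5.94 and 6.45 in Dp3Yah mice and 6.18, 5.97, 6.06, 6.44 and 6.60 in control mice. The 3 highest mice were Dp3Yah replicate 5 and control replicates 4 and 5, so both groups were split between high and low mice. The change was -0.18 with an SE of 0.127 (or, as an interval, -0.46 to 0.09; limma adjusted p = 0.934). Without Dp3Yah replicate 5 it was -0.28, and without control replicate 5 it was -0.10. The mean of 10 oligodendrocyte markers was highest in the same 3 mice: 9.96, 9.92, 9.76, 10.12 and 10.29 in Dp3Yah mice, 10.04, 9.91, 9.81, 10.14 and 10.15 in control mice, with 6 of the 10 markers higher in Dp3Yah mice. Dp3Yah replicate 4 was close behind at 10.12, with a Rab37 value of 5.94. The oligodendrocyte list is given for this match, out of several marker lists. The part of oligodendrocytes in the Rab37 values was not tested.

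Rab13, of the surface delivery of junction proteins, gave the smallest p among the lower genes. It read 5.08, 5.19, 5.22, 5.16 and 5.13 in Dp3Yah mice, against 5.18, 5.30, 5.19, 5.25 and 5.41 in control mice. Dp3Yah replicates 1, 4 and 5 were below every control mouse, with a change of -0.11 (SE 0.051, limma adjusted p = 0.922), and of -0.07 without control replicate 5. The related Rab8a, Rab8b and Rab10, which serve polarised exocytosis and dendrite and axon growth, changed by 0.05, -0.03 and 0.09.

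**Figure D2:**
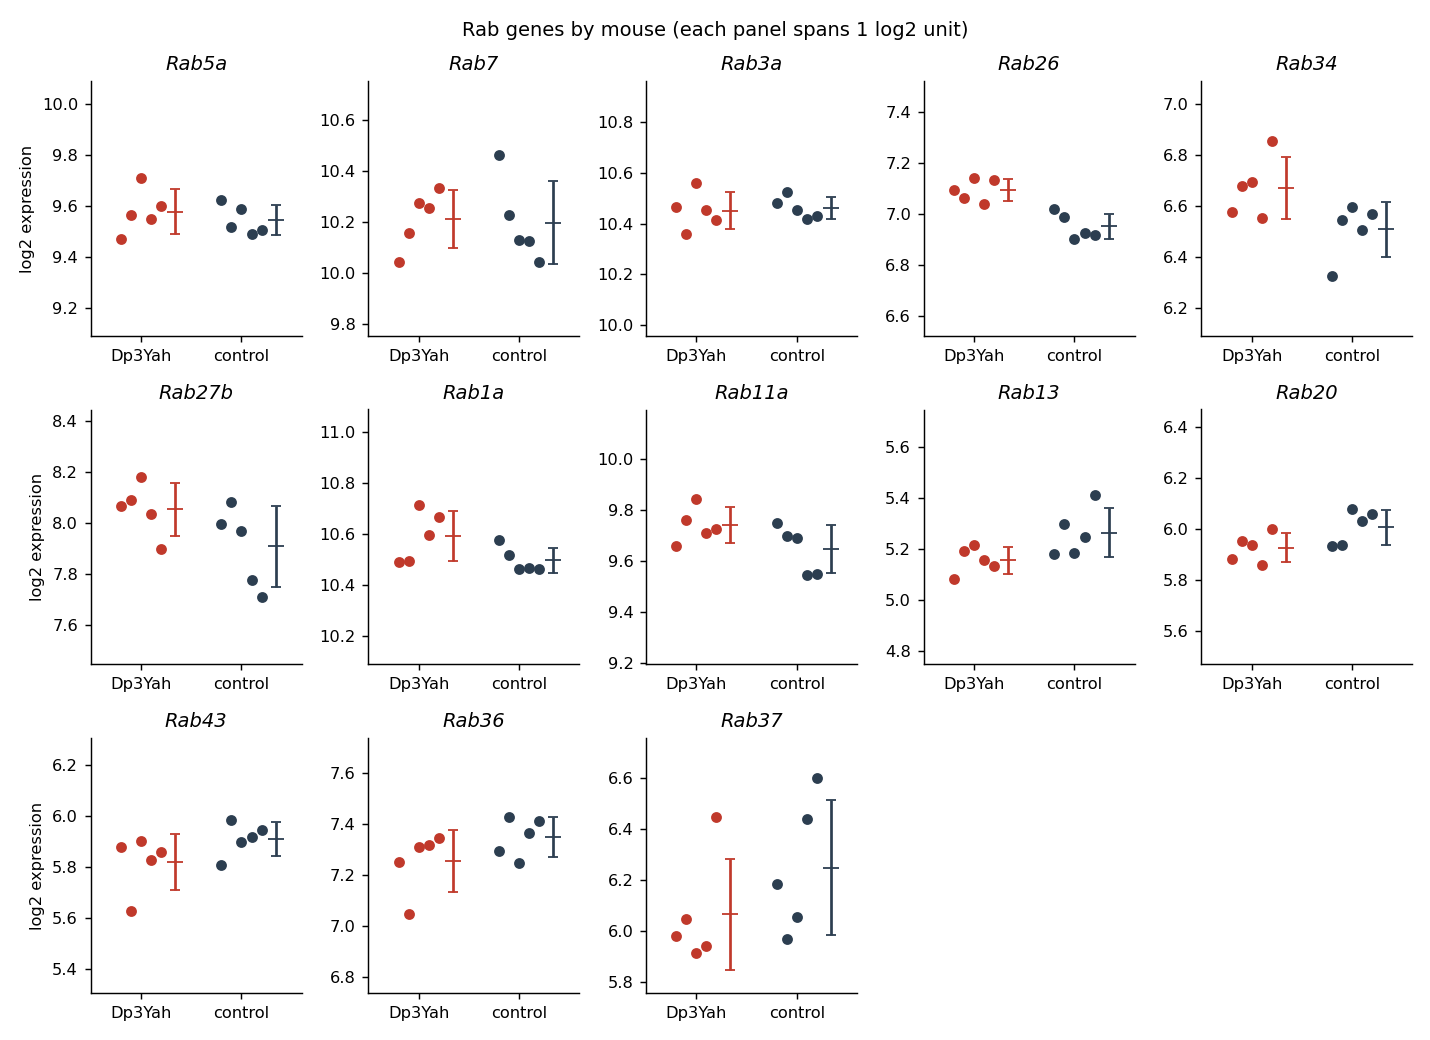
Log2 expression of 13 Rab genes in each mouse (points, in replicate order), with the mean and SD of each group of 5 beside them; every panel spans 1 log2 unit. Rab26 is the gene whose groups do not overlap, and Rab37 the gene with high and low mice in both groups.

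Late endosomal and lysosomal Rabs were higher in Dp3Yah mice for 9 of 11 genes, with a median change of 0.02 and 0 that passed. Rab7 directs late endosomes to lysosomes. In Dp3Yah mice it gave 10.04, 10.15, 10.27, 10.25 and 10.33, and in control mice 10.46, 10.23, 10.13, 10.12 and 10.04. The highest mouse was control replicate 1; Dp3Yah replicates 3, 4 and 5 lay below it and above the other 4 control mice. The change of 0.01 (SE 0.077, 95% interval -0.15 to 0.18, limma adjusted p = 0.993) was 0.08 without control replicate 1, and took the opposite sign when some other mice were left out.

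Rab34, which acts in lysosome positioning and in the formation of cilia, lies on chromosome 11 (78188427 to 78192193, GRCm38.p6). It read 6.58, 6.68, 6.69, 6.55 and 6.85 in Dp3Yah mice and 6.33, 6.55, 6.60, 6.50 and 6.57 in control mice. Dp3Yah replicates 2, 3 and 5 were above every control mouse, and control replicate 1 was below all others. The means were 6.67 ± 0.12 in Dp3Yah mice and 6.51 ± 0.11 in control mice (SD, n = 5 each). The difference of 0.16 (SE 0.066, 95% interval 0.02 to 0.31) had a limma adjusted p = 0.922.

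Rab36, the closest relative of Rab34, went the other way. Its signal was 7.25, 7.04, 7.31, 7.32 and 7.34 in Dp3Yah mice, against 7.29, 7.43, 7.24, 7.36 and 7.41 in control mice. Only Dp3Yah replicate 2 lay outside the range of the control mice. The change was -0.10 (SE 0.061, limma adjusted p = 0.924), and -0.04 without that mouse. Among the others, Rab24 of the autophagic pathway changed by 0.09, Rab12 of receptor degradation by 0.08, and Rab9 and Rab9b, of transport between late endosomes and the Golgi, by 0.06 and 0.07. Rab29, Rab32 and Rab38, which serve lysosome-related organelles, changed by 0.0044, 0.01 and 0.02, and Rab7b by -0.02.

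In the ER and Golgi, Rabs carry newly made proteins forward and retrieve resident ones; 11 of 13 were higher in Dp3Yah mice, with a median change of 0.03 and 0 that passed. Rab1a serves the step between ER and Golgi. Its values were 10.49, 10.49, 10.71, 10.59 and 10.66 in Dp3Yah mice and 10.58, 10.51, 10.46, 10.47 and 10.46 in control mice. Dp3Yah replicates 3, 4 and 5 were above every control mouse. The change was 0.09 (SE 0.051, limma adjusted p = 0.922), and that of Rab1b was 0.03.

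Rab2a and Rab2b, which act at the early Golgi, changed by 0.07 and 0.06. A second probe set of Rab2a gave 0.0029 (SE 0.050). The SE of the first was 0.089, so these values do not set the probe sets apart. Rab6a and Rab6b, of retrograde transport, changed by 0.02 and 0.02, Rab33a and Rab33b by 0.07 and 0.07, Rab39 and Rab39b by 0.02 and 0.05. RAB39B is a gene of X-linked intellectual disability in human. Rab18, of contacts between ER and lipid droplets, and Rab30 of the Golgi changed by 0.03 and -0.04. Rab43, of Golgi structure and receptor export, was the lower gene with the smallest p here: it read 5.88, 5.63, 5.90, 5.83 and 5.86 in Dp3Yah mice and 5.81, 5.98, 5.90, 5.92 and 5.94 in control mice. All Dp3Yah mice but replicate 2 lay among the control mice. Its change was -0.09 (SE 0.056, limma adjusted p = 0.922), and -0.04 without that mouse.

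The last 7 genes had no place among these compartments, and 3 of them were higher in Dp3Yah mice. Rab23, a regulator of Hedgehog signalling, changed by 0.02, Rab28, a ciliary Rab, by 0.05, and Rab40b and Rab40c, which carry a SOCS box and work with ubiquitin ligases, by -0.07 and -0.03. Rab19, Rab42 and Rab44, all below the median level of all genes, changed by 0.0031, -0.02 and -0.01.

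A rank test after the principle of FCROS, the rank method that the study used, put 4 of the 59 Rab genes past its threshold (6.78%), against 4.59% of all genes. The threshold was taken from the spread of the mean ranks over all genes, so about this share passes whether or not the groups differ. The Rab genes past it were Rab26, Rab34 and Rab27b, higher in Dp3Yah mice, and Rab37, lower. The limma intervals of Rab27b and Rab37 included 0.

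Between mice, the Rab genes varied about as much as other genes. The median SD between mice of a group was 0.083 for Rab genes and 0.087 for all genes. Rab37 (0.242), Rab3b (0.180), Rab2a (0.165), Rab7 (0.140) and Rab27b (0.133) had the largest spread. Rab2b (0.033), Rab21 (0.038) and Rab26 (0.047) had the smallest. The difference that can be seen is therefore not the same for each gene: the SE of the change was 0.040 for Rab26 and 0.127 for Rab37.

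**Figure D3:**
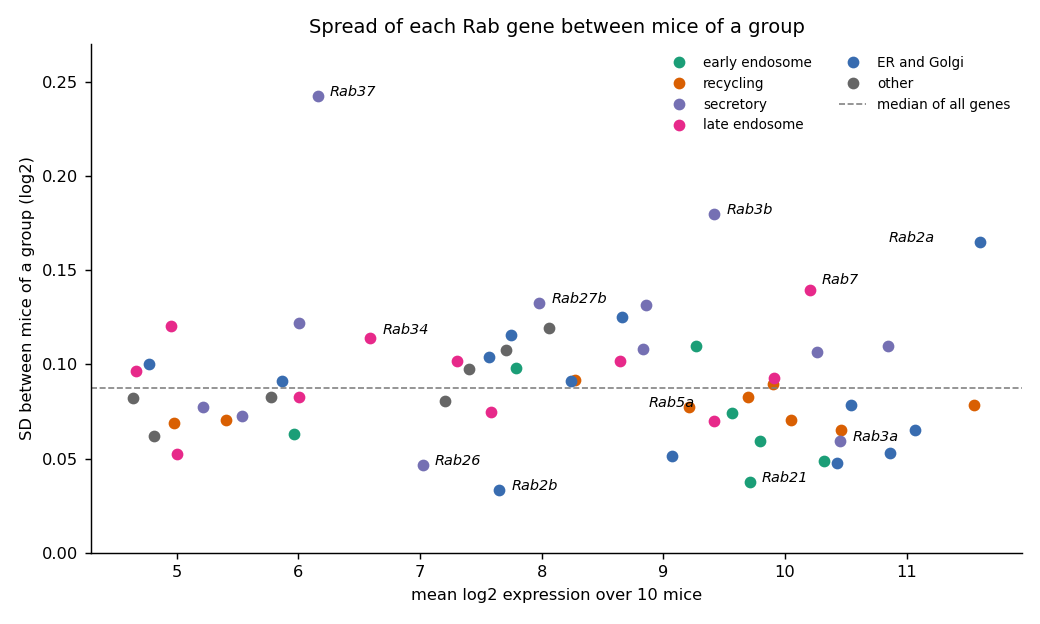
SD between mice of a group (pooled over the 2 groups, log2) against the mean log2 expression over 10 mice, 1 point per Rab gene, coloured by compartment; the dashed line is the median SD of all genes (0.087). Rab37 stands highest at 0.242, and Rab26 lies at 0.047.

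Part of the spread was shared. After the group means had been removed, the mean correlation between pairs of Rab genes over the 10 mice was 0.10, against 0.03 between pairs of all genes. For genes above the median level it was 0.16 for Rab genes and 0.07 for all genes. The closest pair was Rab7 with Rab40c (r = 0.97), and the most opposed pairs were Rab27b with Rab37 (r = -0.93) and Rab25 with Rab6a (r = -0.93). These correlations were picked as the extremes among all pairs, come from the same 10 arrays and their shared normalisation, and stand as a description.

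Mouse by mouse, the median deviation of the 59 Rab genes from their means over all 10 mice was -0.01, -0.02, 0.05, 0.02 and 0.02 in Dp3Yah mice and 0.03, -0.0067, -0.02, -0.05 and -0.02 in control mice. Dp3Yah replicate 3 was the highest and control replicate 4 the lowest. The groups overlapped, since Dp3Yah replicates 1 and 2 lay below control replicates 1 and 2. The same deviation over all genes was between -0.03 and 0.01 in every mouse. By compartment, recycling Rabs stood at 0.09 in Dp3Yah replicate 3 and -0.07 in Dp3Yah replicate 2, secretory Rabs at -0.09 in control replicate 4, and the 7 Rabs outside these compartments at 0.08 in control replicate 1.

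**Figure D4:**
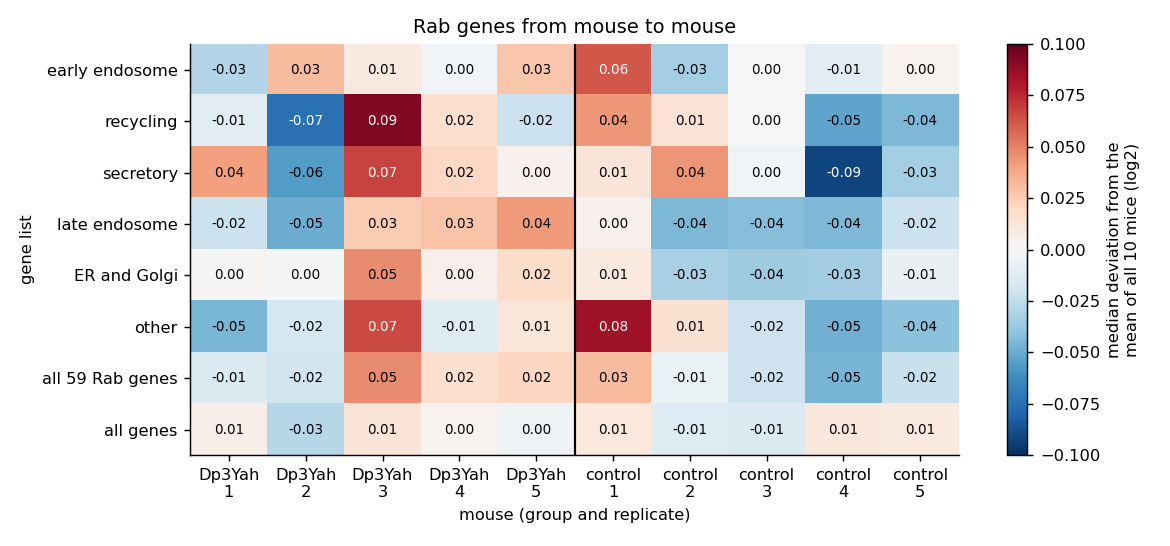
Median deviation (log2) of each group of Rab genes and of all genes from their means over the 10 mice, 1 column per mouse, with Dp3Yah mice left of the line. Dp3Yah replicate 3 (0.05 over all Rab genes) and control replicate 4 (-0.05) are the extremes, and both groups hold mice above and below 0.

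The genes that run the Rab cycle were read in 4 lists, of which 148 of 153 genes were measured; the rest were not analysed here. None of the 148 passed (limma adjusted p over all genes, lowest 0.922), where 0.015% of all genes did, and 4 were at an unadjusted p below 0.05 (2.70%, against 5.08% of all genes). All 4 were higher in Dp3Yah mice, a direction in which 2.49% of all genes were called, so this share too is near the background. The core cycle of escort, prenylation and extraction factors was higher for 8 of 8 genes with a median change of 0.04, led by Gdi2, which extracts Rabs from membranes (0.10, SE 0.069), and by Praf2 (0.07). The exchange factors were higher for 15 of 33 (median -0.01), the GTPase activators and other TBC-domain proteins for 22 of 40 (0.02), and the effectors for 35 of 67 (0.0024). The medians of the 4 lists thus lay on either side of 0.

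Ocrl, the inositol phosphatase bound by Rab5 and other Rabs and mutated in the human Lowe syndrome, read 8.43, 8.49, 8.47, 8.46 and 8.49 in Dp3Yah mice, against 8.42, 8.39, 8.37, 8.22 and 8.37 in control mice. All 5 Dp3Yah mice were above every control mouse, a pattern seen in 0.522% of all genes and not counted over the 148 genes. Ocrl was named because its p was the smallest of the 148. Its change was 0.12 (SE 0.044, limma adjusted p = 0.922). Tbc1d23, a TBC-domain protein that captures endosomal vesicles at the Golgi, changed by 0.21 (SE 0.078, limma adjusted p = 0.922). It lies on chromosome 16 at 57168862 to 57231528, outside the segment between Hspa13 (which starts at 75755190) and Gabpa. Its values were 7.41, 7.47, 7.43, 7.76 and 7.69 in Dp3Yah mice and 7.20, 7.41, 7.45, 7.24 and 7.43 in control mice, so replicates 2, 4 and 5 of the Dp3Yah group were above every control mouse. Vps11, a subunit of the tethering complexes that bind Rab5 and Rab7, changed by 0.11, and Rabgap1, a GTPase activator, by 0.09.

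On the lower side the smallest p belonged to Sytl1, an effector of Rab27 (-0.11, SE 0.050), Mical3, an effector of Rab8 (-0.14), Dennd4b, an exchange factor of Rab10 (-0.09), and Plekhm1, an effector of Rab7 (-0.11). None of these was at an unadjusted limma p below 0.05.

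**Figure D5:**
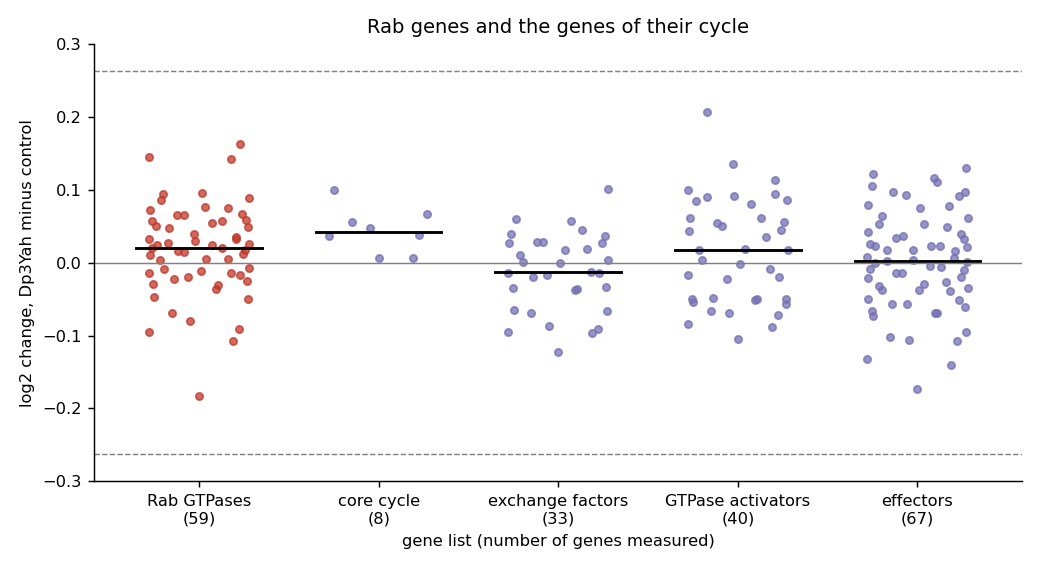
Log2 change (Dp3Yah minus control) of the 59 Rab genes and of the genes of their cycle, 1 point per gene, with the median of each list as a bar and dashed lines at 1.2-fold. Every point lies between the dashed lines, and the medians lie between -0.01 and 0.04. The list of GTPase activators also holds other TBC-domain proteins.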

How the data were processed

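Hippocampal RNA of 10 mice was measured on Affymetrix arrays (Mouse Gene ST). The authors deposited log2 values per probe set; the submitters' processing notes name RMA, limma and the mm10 build, with versions not given in the sources used here. Of 35556 probe sets, 21789 carried 1 gene in the platform annotation and were used. The highest mean represented each of the 998 genes with several probe sets, 3 of them Rab genes. Groups were compared in R 4.3.3 with limma 3.58.1 (lmFit, eBayes, two-sided, Benjamini-Hochberg over 19939 genes, threshold 0.05), tested on simulated data. The rank test was rewritten from the FCROS principle (trim 0.25, f below 0.025 or above 0.975). The number of arrays limits the precision. The Rab genes, their compartments, the gene lists and the tests were chosen with earlier results of these data known. Values per mouse were given for Rab5a, Rab7, Rab3a and the 5 higher and 5 lower Rab genes with the smallest p, and lists named up to 4 genes per direction by the same measure. The alternatives were a replicate block, other uses of probe sets, brighter genes alone, further normalisation, other variance models and leaving out each mouse.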

Additional observations from a re-analysis of the deposited data

Results flagged for a closer look

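Of 26 groups of 5 values (13 Rab genes in each genotype), 2 held a mouse far from the others by Dixon's criterion, which chance alone meets in about 1 of 20 groups. Rab43 in Dp3Yah replicate 2 was 5.63, where the other Dp3Yah mice lay between 5.83 and 5.90. Rab37 in Dp3Yah replicate 5 was 6.45, where the other Dp3Yah mice lay between 5.91 and 6.04. Dp3Yah replicate 2 also had the lowest array weight in limma, 0.479.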

How the results depend on the processing

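Over 21 settings, 0 Rab genes passed limma in each limma setting. These include one added after the data had been seen (choroid plexus marker mean as a covariate). The rank test put 4 past its threshold, which is unlike an adjusted p because a set share of all genes passes it. Same-numbered mice had correlations of their deviations of -0.36 to 0.32. These were not compared with differently numbered mice, so they cannot settle whether the replicate numbers pair the mice. With the number as a replicate block, 4 Rab genes (Rab26, Rab34, Rab27b and Rab37) were at an unadjusted p below 0.05, with 5.05% of all genes. Leaving out single mice gave 2 to 5 such genes (5 without Dp3Yah replicate 2, with 6.19% of all genes, and 4 without control replicate 1, with 5.36%). Rab26 stayed below that p in 19 of 19 limma settings (change 0.13 to 0.16, adjusted p 0.671 to 0.999) and Rab34 in 15 of 19 (0.12 to 0.19). Small changes altered sign: Rab7 was -0.0023 after another quantile normalisation and -0.0242 to 0.0803 when single mice were left out, Rab3a 0.0031 with array weights and -0.0377 to 0.0116, and Rab5a -0.00041 to 0.0601; the cause was not tested. The median change of the Rab genes was 0.0075 to 0.04 and the number of intervals within 1.2-fold 41 to 58, the 41 where 43 genes were tested.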
